A study of Sus scrofa with 15 samples.

Results

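MicroRNAs (miRNAs) of peripheral whole blood were compared between domestic pigs (Sus scrofa) aged 180 days and pigs aged 360 days. The series describes the animals of both ages as sexually mature, and no treatment is named for either group. Small RNA libraries were available for 15 samples at 5 ages, from newborns to day 360, with 3 biological replicates per age. The comparison concerns the 6 libraries of days 180 and 360. All rows of the deposited table were taken, apart from 2 of the 295 that repeat another row in every library, which left 293 miRNAs. Of these, 215 passed a filter on low counts and were tested.

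A mature miRNA guides an Argonaute protein to partly complementary messenger RNAs and lowers their translation and stability. Many miRNAs are transcribed together from neighbouring genes, and each precursor hairpin yields a 5p and a 3p strand, of which usually only one accumulates. In whole blood, miR-451 and miR-486 come largely from red cells and their precursors, miR-142 and miR-150 from leukocytes, and miR-126 from platelets and endothelium. These were all present here, with miR-451 at 37.0%, 49.2% and 49.3% of the counts at day 180 and at 28.8%, 39.5% and 37.7% at day 360. In bulk blood, fewer cells of a type and less RNA per cell cannot be told apart. Nor can a lower share of miR-451 be told apart from more RNA of other miRNAs.

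The 6 libraries held between 7654819 and 9977334 counts, and 230 to 246 miRNAs had at least 1 count. Levels are given as normalised CPM, the usual counts-per-library-size unit, after scaling by trimmed mean of M-values (TMM) factors. These factors were 0.816, 0.761 and 0.765 at day 180 and 0.724, 0.669 and 0.705 at day 360. A count of 3, the upper limit that a count of 0 allows, corresponded to between 0.396 and 0.586 normalised CPM, counting error only. The share of miR-451 averaged 45.2% ± 7.06 at day 180 and 35.3% ± 5.75 at day 360 (SD, n = 3). The libraries of the ages overlapped in this share. An exact permutation test gave a two-sided p of 0.3, where 3 against 3 libraries cannot give a p below 0.1.

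The day 360 libraries differed among themselves more than those of day 180. The median absolute log2 difference over the tested miRNAs was 1.03 between day 360 replicates 2 and 3, 0.57 between replicates 1 and 2 and 0.61 between replicates 1 and 3. Between day 180 libraries it was 0.34, 0.54 and 0.44, and between libraries of different ages it ranged from 0.48 to 0.96. Day 360 replicate 2 was more than 2-fold above both other day 360 libraries for 32 miRNAs and more than 2-fold below both for 27. Day 360 replicate 3 was more than 2-fold below both others for 49. On the first principal component of the 6 libraries (46.4% of the variance), day 360 replicates 2 and 3 lay at opposite ends, at -8.4 and 12.9, with the 3 day 180 libraries between them. On the second component (29.7%) the ages did not overlap. The day 180 libraries were at 1.46, 3.65 and 8.44 there, and the day 360 libraries at -4.99, -8.02 and -0.537.

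No miRNA passed the threshold between day 180 and day 360. The edgeR quasi-likelihood test called 0 of 215 (0%), with a smallest adjusted p of 0.201, and 28 miRNAs (13%) had an unadjusted p under 0.05, 17 of them higher at day 360 (7.91%) and 11 lower (5.12%). DESeq2 called 8 of 215 (3.72%) on the same counts, limma-voom 0 and limma on log2(TPM + 1) 0. The 8 were 5 higher at day 360 (2.33%), miR-1, miR-206, miR-183, miR-24-2-5p and miR-151-3p, and 3 lower (1.4%), miR-221-3p, miR-30a-5p and miR-378b-3p. The standard error of a log2 fold change had a median of 0.59 and ranged from 0.32 to 2.52. Changes well above their own error were not called by edgeR either. They include miR-221-3p, at -1.40 ± 0.36 (edgeR adjusted p = 0.201), and miR-24-2-5p, at 3.57 ± 1.16 (edgeR adjusted p = 0.216). The lack of calls with 3 libraries per age thus does not show that the ages are alike.

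For 42 of 215 miRNAs (19.5%), the 3 libraries of day 360 lay entirely above or entirely below those of day 180. They were higher for 18 (8.37%) and lower for 24 (11.2%). The split depended on the scaling: it was 23 higher and 22 lower with DESeq2 size factors, and 13 higher and 33 lower with library totals alone. Of the 42, 31 did not overlap in the same direction under each of 3 other scalings, 13 higher and 18 lower. Over all tested miRNAs the median log2 fold change was 0.02. It was 0.13 with DESeq2 size factors, -0.12 with library totals and 0.23 with the miRNAs above 10% of any library left out, so a fold change smaller than these shifts can differ in sign between scalings.

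**Figure D1:**
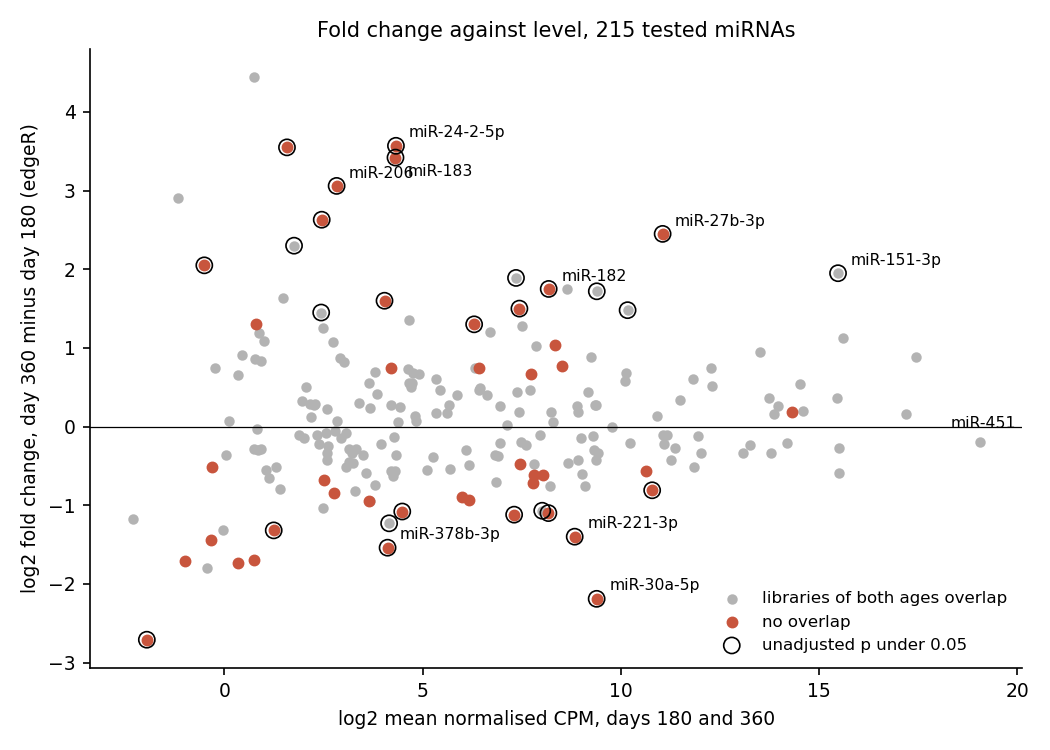
Each point is 1 of the 215 tested miRNAs, with its log2 mean normalised CPM over days 180 and 360 on the x axis and its edgeR log2 fold change (day 360 minus day 180) on the y axis. Red points are the 42 whose libraries do not overlap and circles mark the 28 with an unadjusted p under 0.05; miR-27b-3p, miR-151-3p and miR-30a-5p combine a large fold change with a high level.

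The miRNA of lowest p was miR-221-3p, which with its neighbour miR-222 represses the stem cell factor receptor KIT and the cell cycle inhibitor p27. Its day 180 libraries were at 645, 602 and 743 normalised CPM, and its day 360 libraries at 210, 359 and 183. All 3 day 360 libraries lay below all 3 of day 180. The log2 fold change was -1.40 ± 0.36 (edgeR adjusted p = 0.201, DESeq2 adjusted p = 0.0121). Here and below, the error of a log2 fold change is the SE from the edgeR fit of all 15 libraries. The change stayed between -1.70 and -1.19 when any of the 6 libraries was left out. The other strand, miR-221-5p, had a log2 fold change of -0.55 ± 0.43, and miR-222 one of -0.47 ± 0.40, both with overlapping libraries. The ratio of miR-221-3p to miR-222 counts was 2.11, 2.64 and 3.02 at day 180 and 1.34, 2.21 and 0.757 at day 360.

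miR-30a-5p, a member of the miR-30 family that represses the autophagy protein beclin 1, was at 515, 454 and 2330 normalised CPM at day 180 and at 205, 349 and 171 at day 360. The libraries did not overlap, but the day 180 mean rested on replicate 3. The log2 fold change was -2.19 ± 0.59 (edgeR adjusted p = 0.201) and -0.88 without that library (adjusted p = 0.666). Its other strand, miR-30a-3p, was lower by the mean as well, at 25 against 10.6 normalised CPM, with overlapping libraries. Of the 10 tested strands of the miR-30 family, 7 had negative log2 fold changes, also under each of the 3 other scalings. Their median was -0.72, beside 0.02 for all tested miRNAs, and -0.24 without day 180 replicate 3. Both strands of miR-30b (-0.70 and -0.74) and 3 strands of miR-30c were among them, at -0.27 for miR-30c-5p, -1.31 for miR-30c-3p and -0.95 for miR-30c-1-3p. Their libraries overlapped apart from miR-30c-1-3p, which overlapped without the miRNAs above 10% of any library. The most abundant member, miR-30d, went the other way by a small amount, at 19712, 18921 and 18823 normalised CPM at day 180 and at 22734, 21131 and 21312 at day 360 (log2 fold change 0.18 ± 0.41). Those libraries overlapped with library totals in place of TMM. miR-30e-5p averaged 890 and 1326, the latter from values of 749, 2911 and 317, and its log2 fold change of 0.58 became -0.76 without day 360 replicate 2.

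miR-378b-3p was at 23.6, 35.9 and 18.0 normalised CPM at day 180 and at 8.86, 11.7 and 5.97 at day 360. The log2 fold change was -1.54 ± 0.49 (edgeR adjusted p = 0.216, DESeq2 adjusted p = 0.0327), and all day 360 libraries lay below those of day 180. Its relative miR-378, hosted by the gene of the metabolic coactivator PPARGC1B, had a log2 fold change of -0.61 ± 0.39. The miR-378 libraries did not overlap with TMM factors, but did with DESeq2 size factors and without the miRNAs above 10% of any library. As the sequences of such relatives are close, their reads may not be fully separable.

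Among miRNAs of the innate immune response, miR-146a-5p was lower at day 360. It dampens NF-kB signalling by repressing TRAF6 and IRAK1. It was at 2418, 2360 and 1989 normalised CPM at day 180 and at 1501, 1589 and 775 at day 360, with no overlap (log2 fold change -0.81 ± 0.36; edgeR adjusted p = 0.319). In the 7 tested miRNAs of this list, 3 were positive and 4 negative in log2 fold change, and their median was -0.19. Of the 7, miR-146a-5p and miR-221-3p had no overlap, both lower, beside 11.2% of all tested miRNAs, and this held under each of the 3 other scalings. miR-155-5p, which activated lymphocytes and macrophages induce, averaged 191 ± 47.0 at day 180 and 167 ± 80.2 at day 360 (SD, n = 3). miR-21, which rises in many activated cells, averaged 3699 ± 2311 and 6184 ± 3982, with overlapping libraries.

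Other abundant miRNAs with no overlap were also lower at day 360. miR-4334-3p was at 157, 285 and 210 normalised CPM at day 180 and at 97.9, 129 and 74.2 at day 360. miR-339-5p was at 326, 505 and 350 and then at 169, 281 and 103. Their log2 fold changes were -1.12 ± 0.42 and -1.10 ± 0.44 (edgeR adjusted p = 0.256 and 0.283), and the other strand, miR-339-3p, also had no overlap (-1.08 ± 0.48). Further miRNAs of this kind were miR-9 (-0.93), which represses NFKB1 in leukocytes and is best known from brain, miR-2320-5p (-0.90), miR-361-5p (-0.72) and miR-425-3p (-0.61). Their levels lay between 20 and 347 normalised CPM over the 6 libraries. In each of these 4, day 360 replicate 3 was the lowest library. miR-361-3p, the other strand of miR-361-5p, had means of 1899 and 1280 (-0.57), and its libraries overlapped without the miRNAs above 10% of any library.

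**Figure D2:**
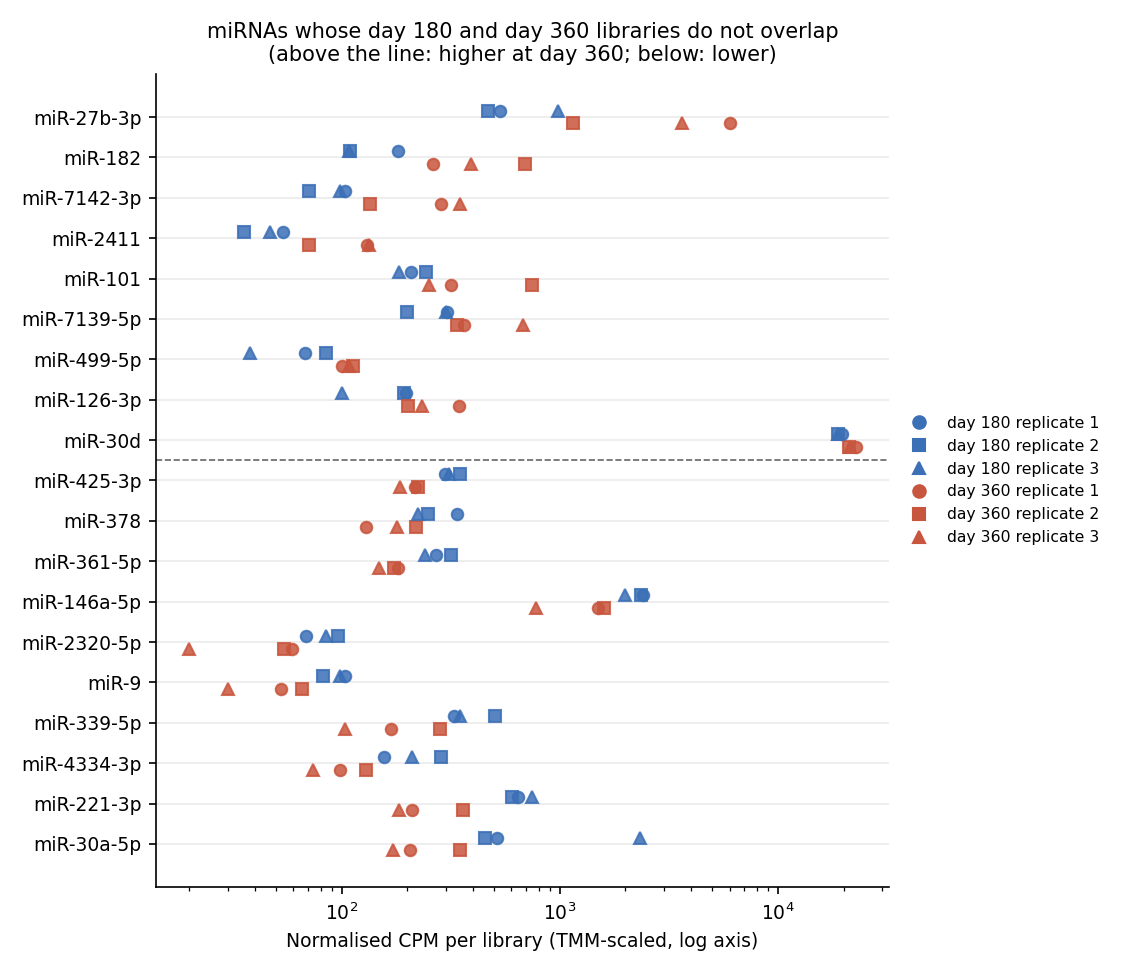
Normalised CPM of each library (log axis) for the miRNAs with a mean of at least 50 normalised CPM at either age whose libraries do not overlap, 9 higher at day 360 (above the dashed line) and the 10 with the most negative fold changes. Blue symbols are day 180 and red symbols day 360, with a symbol for each replicate; day 360 replicate 2 (squares) lies nearest to the day 180 values for miR-27b-3p, miR-7142-3p and miR-2411 and farthest from them for miR-182 and miR-101.

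The miRNAs of the miR-183, miR-96 and miR-182 cluster, which are transcribed together in sensory cells and, as miR-182, induced by interleukin 2 in T helper cells, were all higher at day 360. RefSeq places the 3 genes next to each other in the pig genome. miR-182 had 1379, 815 and 759 counts at day 180, a mean of 133 normalised CPM, and its day 360 libraries were at 261, 689 and 391 normalised CPM. miR-183 was at 5.27, 1.47 and 3.42 normalised CPM and then at 19.8, 74.4 and 15.1, and miR-96-5p at 0.659, 0.133 and 0.571 and then at 1.8, 13.7 and 1.05. No library of day 360 reached down to those of day 180 for any of the 3, under TMM and each of the 3 other scalings, beside 8.37% of all tested miRNAs that were higher with no overlap under TMM. The cluster was listed with earlier results of these data known, and its members, being transcribed together, are not independent.

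The log2 fold change was 1.75 ± 0.64 for miR-182 (edgeR adjusted p = 0.256), 3.42 ± 1.21 for miR-183 (edgeR adjusted p = 0.256, DESeq2 adjusted p = 0.0304) and 3.55 ± 1.39 for miR-96-5p (edgeR adjusted p = 0.283). Day 360 replicate 2 was the highest library for all 3. Without it the log2 fold changes were 1.47, 2.42 and 1.64. miR-96-5p rested on few reads, with 5, 1 and 4 counts at day 180 and 13, 70 and 6 at day 360.

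The miR-23, miR-27 and miR-24 miRNAs come from a pair of related clusters, and they repress among others glutaminase (miR-23) and the adipogenic receptor PPARG (miR-27). By the order of genes in RefSeq, MIR23B and MIR27B lie beside MIR24-2, and MIR23A and MIR27A beside MIR24-1. The mature miR-24-3p can come from both. In the first cluster, miR-27b-3p was at 532, 469 and 977 normalised CPM at day 180 and at 6015, 1151 and 3624 at day 360. Its libraries did not overlap, and the log2 fold change was 2.45 ± 0.90 (edgeR adjusted p = 0.256). miR-24-2-5p was at 3.69, 3.07 and 2.57 and then at 61.3, 5.67 and 44.1, again with no overlap (3.57 ± 1.16; edgeR adjusted p = 0.216, DESeq2 adjusted p = 0.0304). miR-27b-5p, the minor strand, was at 1.32, 0.534 and 1.14 and then at 3.60, 1.37 and 2.46. miR-23b was at 112, 159 and 274 and then at 1017, 148 and 669, where day 360 replicate 2 fell among the day 180 values.

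In the second cluster, the libraries of the ages overlapped for every strand. miR-23a was at 430, 479 and 464 normalised CPM at day 180 and at 672, 329 and 551 at day 360 (log2 fold change 0.18 ± 0.39). miR-27a had a log2 fold change of 0.44 ± 0.41 and miR-24-1-5p one of 0.40 ± 0.54. The shared miR-24-3p lay between, at 808, 601 and 414 and then at 2447, 697 and 1951 (1.48 ± 0.61). Over both clusters, 8 of 8 tested strands were positive in log2 fold change, beside 50.2% of all tested miRNAs, and 3 of 8 had no overlap, beside 8.37% higher with no overlap among all tested. Of these 3, miR-27b-5p overlapped with library totals. Without day 360 replicate 3, 7 of 8 strands were positive. This list, like the others here, was chosen with earlier results of these data known, and strands of a cluster are not independent. The shares describe the list and are not a test.

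Ratios of counts within a library do not depend on the scaling. miR-27b-3p exceeded miR-27a by 2.59, 3.72 and 10.4 times at day 180 and by 24, 7.81 and 19.9 times at day 360. The ratio of miR-23b to miR-23a was 0.261, 0.331 and 0.591 and then 1.51, 0.45 and 1.21. That of miR-24-2-5p to miR-24-1-5p was 0.0479, 0.0537 and 0.162 and then 0.77, 0.0997 and 0.717. In each ratio, day 360 replicates 1 and 3 lay above all day 180 libraries and day 360 replicate 2 lay below day 180 replicate 3. The difference between the clusters was noticed in these libraries and was not tested. miR-23a and miR-23b, like miR-27a and miR-27b, are near-identical in sequence, so the counting of reads could move some of them between the pair.

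**Figure D3:**
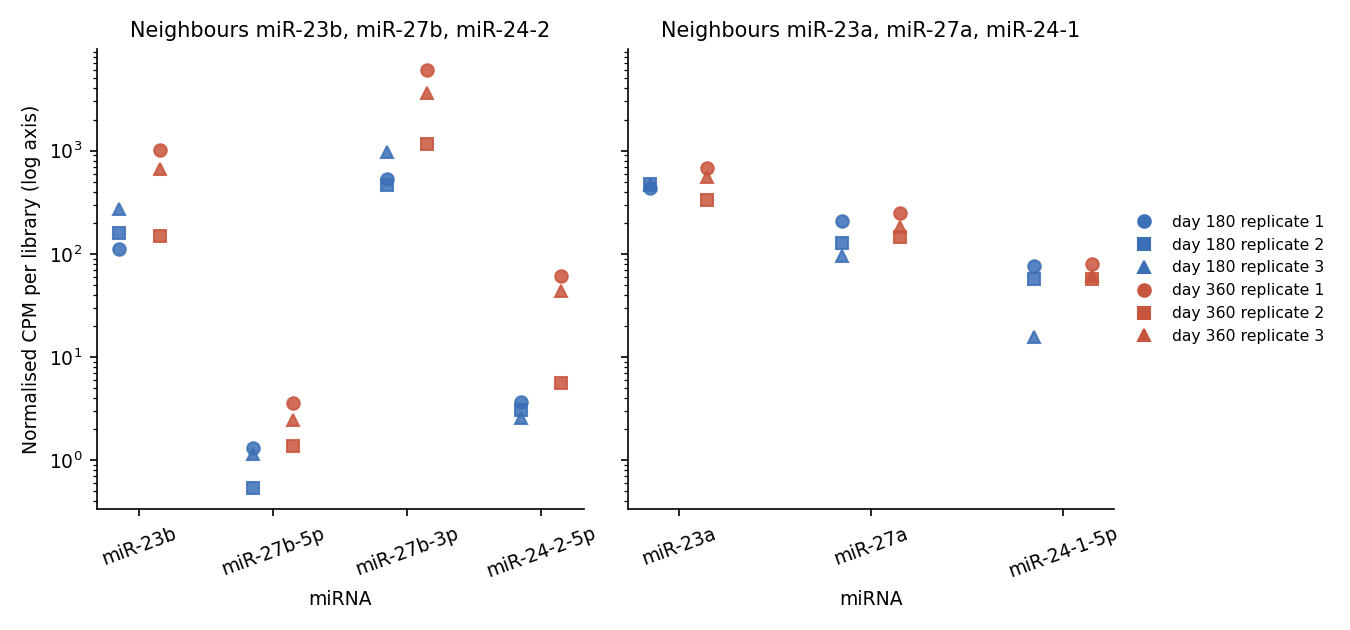
Normalised CPM of each library (log axis) for the strands of the neighbours miR-23b, miR-27b and miR-24-2 (left) and of miR-23a, miR-27a and miR-24-1 (right), with day 180 in blue and day 360 in red. Day 360 replicates 1 and 3 stand well above day 180 on the left, while replicate 2 (red squares) is the lowest day 360 library for all 7 strands shown.

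Of the muscle list, all 4 tested members were higher at day 360 with no overlap, beside 8.37% of all tested miRNAs, with a median log2 fold change of 2.34. The members were chosen with earlier results of these data known, so the share is a description and not a test. miR-206, a miRNA of skeletal muscle, was at 3.30, 0.934 and 0.285 normalised CPM at day 180 (25, 7 and 2 counts) and at 13.4, 5.67 and 19.0 at day 360 (97, 29 and 108 counts). miR-1, which skeletal muscle shares with heart, was at 3.56, 0.534 and 0.428 and then at 11.2, 5.86 and 11.2. Day 180 replicate 1 was the highest of its age for both. miR-133a-3p, transcribed together with miR-1, was at or near the level of 3 counts in every day 180 library and at 1.94, 0.782 and 0.702 at day 360. It had 4, 2 and 0 counts at day 180 and 14, 4 and 4 at day 360. Day 360 replicates 2 and 3 thus lay above day 180 replicate 1 only after scaling, on equal counts.

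miR-206 had a log2 fold change of 3.06 ± 0.96 and miR-1 one of 2.63 ± 0.83 (edgeR adjusted p = 0.216 for both, DESeq2 adjusted p = 0.0304 for both). Without day 180 replicate 1 they were 4.45 and 4.26. miR-499-5p, hosted by the slow myosin gene MYH7B, was more abundant and differed less, at 67.9, 84.8 and 37.9 against 100, 113 and 108 (0.75 ± 0.63; edgeR adjusted p = 0.683). The summed level of the list was between 38.7 and 86.5 at day 180 and above that in every day 360 library, up to 139, most of it miR-499-5p. The 4 tested liver miRNAs were all positive in log2 fold change as well, with a median of 0.27, or 2 of 4 without day 180 replicate 1. They overlapped between the ages, with a summed list level of 80.3 to 139 and then 56.9 to 314. miR-122 was at 12, 4 and 43.4 against 7.76, 57.1 and 5.79. Of 8 epithelial miRNAs listed, only 2 had a row in the deposited table, and neither passed the filter. These 2 summed to at most 0.659 normalised CPM in any of the 6 libraries, which says nothing of those without a row. The part of other tissue in the muscle values was not tested.

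The most abundant miRNA among those of lowest p was miR-151-3p, from an intron of the focal adhesion kinase gene PTK2 and abundant in platelets. It was at 24448, 18330 and 13529 normalised CPM at day 180 and at 88815, 20302 and 108932 at day 360. Replicates 1 and 3 of day 360 lay far above day 180, and replicate 2 among the day 180 values. The log2 fold change was 1.95 ± 0.64 (edgeR adjusted p = 0.216, DESeq2 adjusted p = 0.0369), 2.56 without day 360 replicate 2 and 1.43 without day 360 replicate 3. The other strand, miR-151-5p, was at 71.3, 103 and 162 and then at 196, 107 and 98.3 (0.26 ± 0.45). Of the other platelet miRNAs, miR-126-3p was at 198, 193 and 100 and then at 345, 202 and 234, while miR-191 averaged 9777 ± 2646 and 7710 ± 1967 (SD, n = 3). The miR-126-3p libraries overlapped with library totals and without the miRNAs above 10% of any library. Of the 10 tested platelet miRNAs, 5 were positive and 5 negative in log2 fold change, with 3 positive without day 360 replicate 1 and 7 without day 180 replicate 3. The list also holds miR-221-3p, lower at day 360 with no overlap (-1.40 ± 0.36). It was the 1 of 10 lower with no overlap, beside 11.2% of all tested miRNAs. miR-126-3p was the 1 higher with no overlap under TMM, beside 8.37%.

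Of the remaining miRNAs with no overlap that were higher, miR-1839-5p was at 7.51, 9.34 and 7.56 normalised CPM at day 180 and at 28.1, 26.2 and 19.7 at day 360. Its replicates were close together at both ages, and the log2 fold change was 1.6 ± 0.53 (edgeR adjusted p = 0.216). miR-2411 was at 53.9, 35.8 and 46.8 and then at 131, 70.9 and 134 (1.30 ± 0.47; edgeR adjusted p = 0.256). miR-7142-3p was at 103, 70.7 and 97.9 and then at 285, 135 and 350 (1.5 ± 0.58; edgeR adjusted p = 0.279). miR-101, which represses the histone methyltransferase EZH2, was at 208, 243 and 184 and then at 317, 743 and 250, and its log2 fold change of 1.04 ± 0.73 became 0.50 without day 360 replicate 2. miR-7139-5p had one of 0.77 ± 0.43, which became 0.23 without day 360 replicate 3. The libraries of miR-101 and miR-7139-5p overlapped with library totals.

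The miRNAs of highest mean level were miR-451, miR-148a-3p, let-7i, miR-7 and let-7g, and each overlapped between the ages. miR-451, which is processed by Argonaute 2 without Dicer, was at 453614, 646540 and 644168 normalised CPM at day 180 and at 397480, 590299 and 535134 at day 360 (log2 fold change -0.20 ± 0.74). miR-148a-3p, a repressor of the DNA methyltransferase DNMT1, was at 178696, 142421 and 54604 and then at 274109, 261490 and 158904 (0.89 ± 0.78). miR-7, which represses the EGF receptor, was at 43950, 32071 and 18706 and then at 85618, 103462 and 17307 (1.12 ± 0.83). For both, day 360 replicates 1 and 2 lay above all day 180 libraries, and replicate 3 did not. The TMM factors of the 3 day 360 libraries were all below those of day 180, with means of 0.699 ± 0.0281 and 0.781 ± 0.0306 (SD, n = 3; exact permutation test, two-sided p = 0.1, the smallest possible here). let-7 miRNAs accumulate during differentiation, and 5 of the 9 tested were positive, in a range from -0.43 to 0.36, or 3 of 9 with library totals. It was 9 of 9 without day 180 replicate 3 and 2 of 9 without day 360 replicate 3.

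For the erythroid list, 2 of 4 members were positive, or 4 of 4 without day 360 replicate 1 and 1 of 4 without day 360 replicate 3. Beside miR-451, miR-486 had a mean of 19130 ± 5705 normalised CPM at day 180 against 27879 ± 13345, miR-144 71.8 ± 16.9 and 98.9 ± 78.4, and miR-363 533 ± 277 and 485 ± 17.7 (SD, n = 3). miR-144 and miR-451 are neighbours, and the libraries of both overlapped between the ages. The summed level of the list lay between 471419 and 670181 at day 180 and between 425787 and 605557 at day 360.

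Of the lymphoid list, 2 of 9 members were positive in log2 fold change, beside 50.2% of all tested miRNAs, and 7 were negative. The median was -0.19, and 5 of 9 were negative without the miRNAs above 10% of any library. miR-181c and miR-181d-5p, neighbours from a family that tunes T-cell receptor signalling, were lower with no overlap, beside 11.2% of all tested miRNAs, and miR-181d-5p overlapped in the last scaling. miR-181c was at 7.91, 10.1 and 7.99 normalised CPM and then at 4.71, 6.45 and 3.33 (log2 fold change -0.85 ± 0.49). The far more abundant miR-181a was at 5290, 4032 and 3551 and then at 3033, 3987 and 2042 (-0.51 ± 0.62). miR-181b averaged 712 and 577, and miR-150, which represses MYB in lymphocytes, 2241 and 2078. miR-28-3p averaged 866 and 1388, the latter with day 360 replicate 3 at 2594. Without this library its log2 fold change was -0.25 in place of 0.68.

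Of the myeloid list, 5 of 7 tested members were positive. All overlapped, beside 19.5% of all tested miRNAs with no overlap. miR-223, also on this list, had no row in the deposited table. The median was 0.41, and 0.02 without day 360 replicate 2. miR-142-3p was at 106, 145 and 68.0 normalised CPM and then at 124, 616 and 31.8, and its log2 fold change of 1.28 became -0.48 without day 360 replicate 2. The other strand, miR-142-5p, averaged 554 ± 13.7 and 413 ± 166 (SD, n = 3), and miR-532-5p 599 and 725.

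In the miR-17/92 cluster and its paralogues, which promote proliferation of blood precursors, 4 of 13 members were positive. This was 6 of 13 with DESeq2 size factors, 8 of 12 without the miRNAs above 10% of any library, and 8 of 13 without day 180 replicate 3 or without day 360 replicate 1. Without day 360 replicate 2 it was 3 of 13, and the median was -0.70 in place of -0.14. The 3 with the largest positive values were neighbours in RefSeq and were high in day 360 replicate 2: miR-19a at 1.52, 14.8 and 0.527 normalised CPM at day 360, miR-19b at 11.2, 94.2 and 3.51, and miR-20a at 384, 1793 and 201. miR-92a from the same cluster was at 28339, 36006 and 46951, not highest in that library, and averaged 55783 at day 180 and 37099 at day 360. miR-17-5p averaged 889 and 881. The most negative member, miR-18b, had means of 1.97 and 0.565 (log2 fold change -1.73). It was the 1 of the 13 without overlap under TMM, beside 19.5% of all tested miRNAs. Each of the 3 other scalings left it without overlap too, on 11, 13 and 19 counts at day 180 and 8, 3 and 0 at day 360. miR-15a, miR-15b and miR-16, which restrain the cell cycle, had log2 fold changes of -0.37, -0.34 and -0.12, and miR-29a, miR-29b and miR-29c, repressors of collagens, of -0.76, -0.22 and -0.42. All libraries of the miR-15/16 and miR-29 families overlapped, and without day 180 replicate 3, 2 of 3 in each family were positive. Without day 360 replicate 2, all 3 in each were negative, with medians of -1.03 and -1.32.

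Among the other lists, miR-99a averaged 14213 and 15840 normalised CPM, miR-125b 258 and 239, miR-125a 20.3 and 21.2 and miR-100 23.1 and 14.8. miR-10a-5p and miR-10b, from HOX clusters, averaged 588 and 714, and 13.7 and 22.9, and miR-10b had no overlap (log2 fold change 0.74 ± 0.43). miR-10a-3p and miR-196b-5p were under 5 normalised CPM on average at both ages. miR-127, the tested member of the imprinted DLK1-DIO3 cluster, was at most at 2.85 in any library. From liver and gut, miR-192 averaged 63.3 and 145, miR-194a 16.7 and 20.2 and miR-194b-5p 4.37 and 5.26. On the brain list, miR-128 averaged 4150 and 5923 and miR-219a 10.6 and 17.1. Apart from miR-10b, these overlapped.

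**Figure D4:**
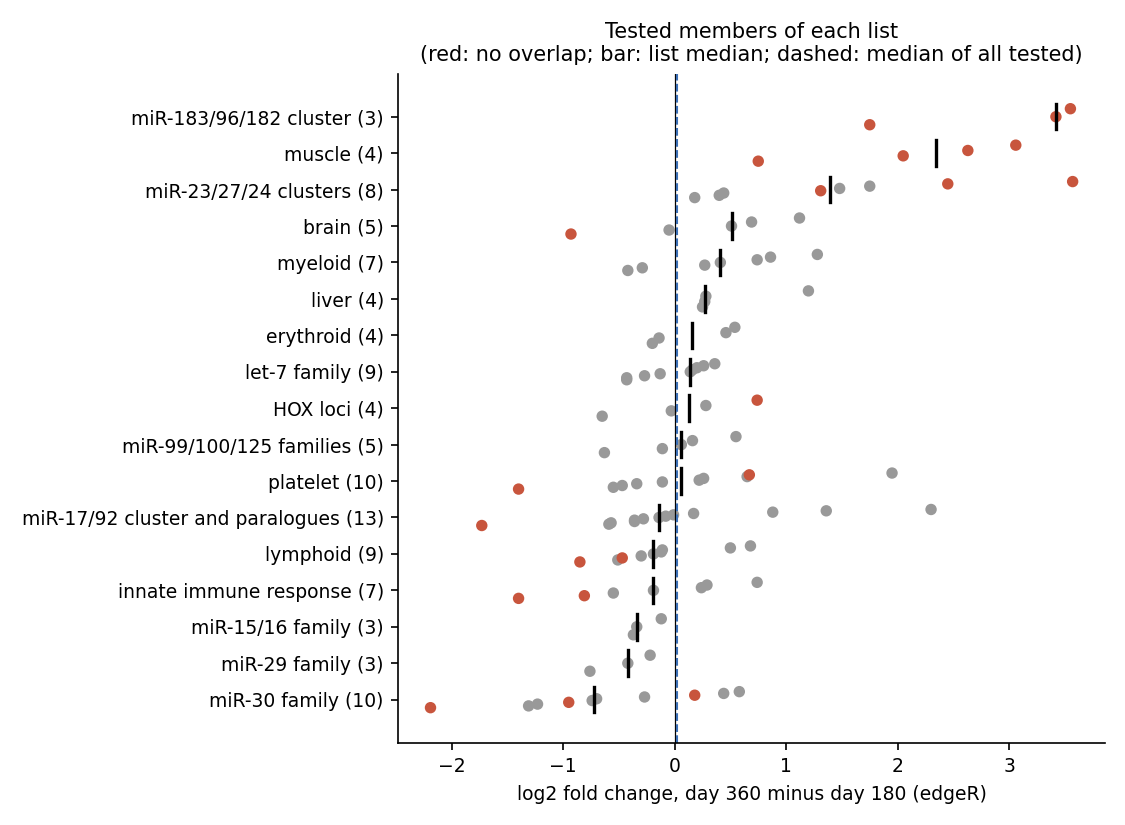
Log2 fold changes (day 360 minus day 180, x axis) of the tested members of each list with at least 3 of them, the number of members in parentheses. Red points had no overlap between the ages, the black bar is the list median and the dashed line the median of all tested miRNAs; the lists of the miR-183 cluster, muscle and the miR-23, miR-27 and miR-24 clusters lie to the right, with medians of 3.42, 2.34 and 1.40, and the miR-30 family lies farthest to the left, at -0.72.

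Both strands were tested for 35 precursors. The strands had the same sign of log2 fold change in 24 of them, 11 higher and 13 lower. In miR-27b (both higher), miR-339 and miR-361 (both lower), neither strand overlapped between the ages with TMM. miR-27b-5p overlapped with library totals, and miR-361-3p without the miRNAs above 10% of any library. miR-2320 was the reverse: miR-2320-5p was at 68.8, 96.4 and 84.5 normalised CPM and then at 59, 54.3 and 20, and miR-2320-3p at 72.4, 52.3 and 83.9 and then at 241, 53.3 and 480. The log2 fold changes were -0.90 ± 0.56 for the 5p and 1.89 ± 0.70 for the 3p strand, and day 360 replicate 3 held both the lowest 5p and the highest 3p value. miR-1306-3p behaved similarly in the libraries, at 989, 274 and 1834 at day 360 against 445, 264 and 232, while its 5p strand had a log2 fold change of 0.19. Both miRNAs were singled out after their values were seen.

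Set beside the earlier ages, day 360 had the lowest mean of the 5 ages for 68 of the 215 tested miRNAs and the highest for 53. Of the 24 miRNAs with no overlap that were lower at day 360, 19 had their lowest mean of all ages there. Of the 18 that were higher, 8 had their highest mean there. By their selection, day 360 already lay below day 180 for all 24 and above it for all 18. These counts can therefore not be set against the 68 and 53 of all tested miRNAs. miR-221-3p averaged 644, 546, 586 and 663 normalised CPM at days 0, 30, 60 and 180, and 251 at day 360. miR-151-3p averaged 13498, 20261, 12659 and 18769 and then 72683. Others were within the range of an earlier age: miR-27b-3p averaged 6621, 924, 2017 and 659 and then 3596, miR-182 72.0, 738, 162 and 133 and then 447, and miR-206 23.7, 0.28, 0.104 and 1.51 and then 12.7. For these 3 the spread at an earlier age was wide, with miR-27b-3p between 1034 and 10640 in newborns and miR-182 between 198 and 1708 at day 30.

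**Figure D5:**
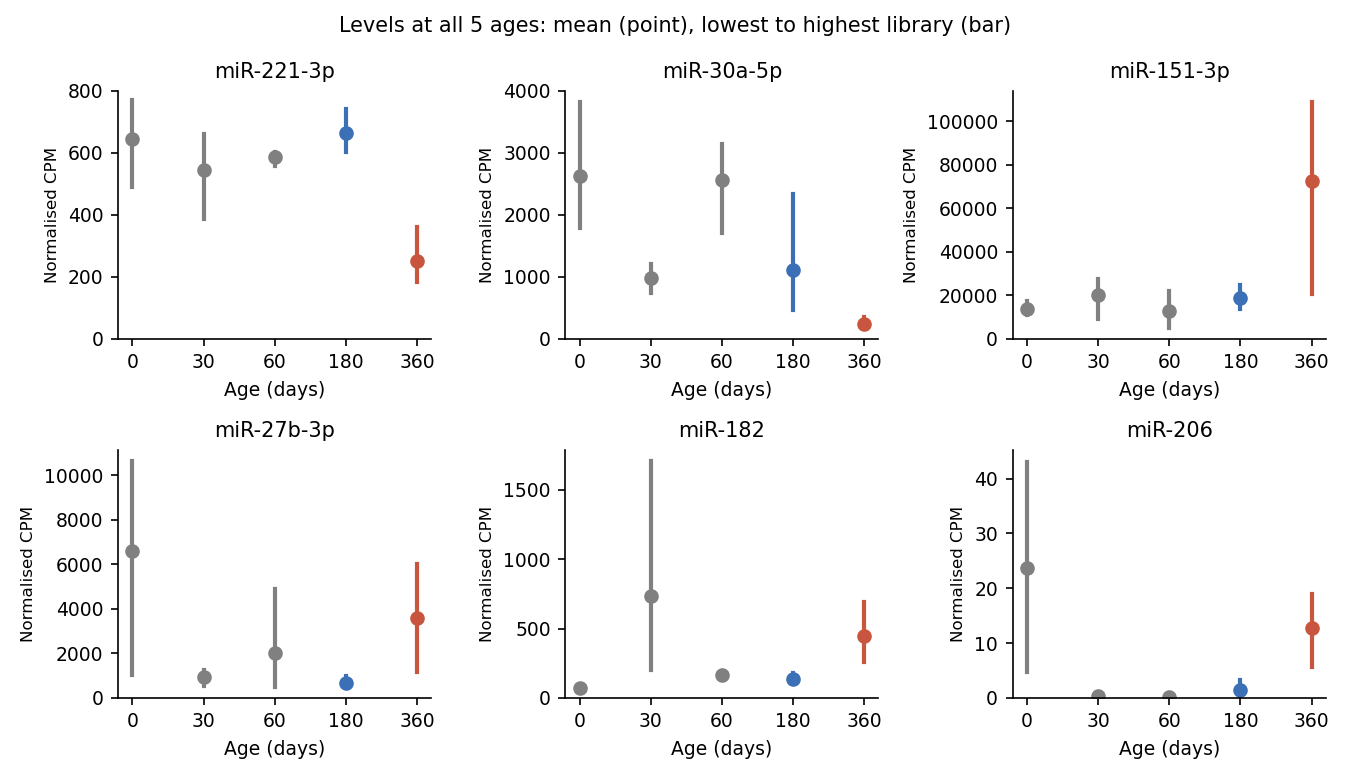
Mean normalised CPM (point) and the range from the lowest to the highest of 3 libraries (bar) at each age, with ages equally spaced on the x axis and each y axis starting at 0; day 180 is blue and day 360 red. For miR-221-3p the day 360 range lies below that of every other age, and for miR-206 the values at day 360 lie above those of days 30, 60 and 180 and within the range of newborns.

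The 78 miRNAs that did not pass the filter were scarce in these libraries. In the 6 libraries 19 of them had no count, and 4 had more than 10 counts in any library. miR-184 was the highest, with 90 counts in day 360 replicate 3 and 2, 3, 0, 6 and 3 in the others, so that 1 library held nearly all of its reads, and it is named here because of that value.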

How the data were processed

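Small RNA libraries were made from mirVana RNA with Illumina chemistry, per the labels' protocols. The submitters' processing notes list CASAVA 1.8.2 and HISAT2 2.0.4 but not what each did. For the counting tool, miRNA annotation and genome build, each is not given in the sources used, and no coordinates are printed. The deposited read counts are whole numbers per mature miRNA and library, and they were tested. The deposited TPM values scale each count by a library total with no length term, per the file headers and values, and served only as an alternative. Rows repeating miR-199a-3p and miR-9 were dropped. Counting intervals treat reads as independent, which PCR reads without molecular identifiers are not.

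Counts of all 15 libraries were fitted in R 4.3.3 with edgeR 4.0.16 (expression filter by age with minimum count 10 and minimum total 15, TMM factors, quasi-likelihood test, a coefficient per age, 10 residual degrees of freedom). Adjustment followed Benjamini and Hochberg over the 215 tested miRNAs, with a threshold of 0.05. Standard errors are the log2 fold change divided by the root of F. The code of the contrast was run on simulated counts with known changes, as a check of the code only. DESeq2 1.42.0 and limma 3.58.1 were alternatives, limma on TPM with a pseudocount of 1. Other alternatives were 3 scalings, 2 filters, fewer libraries, a replicate block and each of the 6 libraries left out.

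Named are at most 10 miRNAs of most positive and 10 of most negative fold change (mean of at least 50 normalised CPM at either age, no overlap), the 10 of lowest p, those called by DESeq2 or limma-voom, the 5 most abundant and up to 4 of the most abundant tested members of each list. A few others, such as miR-27b-5p, miR-221-5p, miR-181c, miR-361-3p and miR-19a, are named as strands or neighbours of these, and miR-18b after its values were seen. The lists and members were chosen with earlier results of these data known. RefSeq (Sscrofa11.1) served for gene order only, with miRNA genes within 10000 bases of the next taken as neighbours. Names of 274 of the 293 miRNAs matched a gene.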

Additional observations from a re-analysis of the deposited data

How the results depend on the processing

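The count of miRNAs called between day 180 and day 360 was 0 in each alternative with edgeR or limma, and 8 with DESeq2, 5 higher and 3 lower at day 360. The smallest adjusted p with edgeR or limma was 0.0983, without day 180 replicate 1. With 1 of the 6 libraries left out the count called stayed at 0, the count at an unadjusted p under 0.05 was between 17 and 32, beside 28 (18 without day 180 replicate 2 or 3, 17 without day 360 replicate 3). The count with no overlap was between 49 and 83, beside 42 (83 without day 360 replicate 2, 76 without replicate 3). This count is larger with fewer libraries by construction. The difference in the share of miR-451 was -9.85 percentage points and between -13.9 and -6.57 without 1 library. No miRNA was called with the replicate number as a block either, where 25 had an unadjusted p under 0.05. Deviations of same-numbered libraries from their age means correlated at -0.06, 0.28 and 0.05, which cannot settle whether the numbers pair the samples.

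Of 1310 log2 fold changes of the 78 named miRNAs under the alternatives, 1228 kept the direction and the side of the threshold, 8 passed it (DESeq2) and 74 reversed, all of them of miRNAs with overlapping libraries. Reversed values were, with DESeq2 size factors and with DESeq2 alike, miR-150 at 0.04, miR-17-5p at 0.06 and miR-10a-3p at 0.05. With library totals let-7i and miR-99a were at 0.00 and miR-125a at -0.12. With limma on TPM let-7i was at -0.01, miR-144 at -0.07, miR-23a at -0.04, miR-30e-5p at -0.17, miR-122 at -0.06, miR-194a at -0.12 and miR-219a at 0.00. With limma-voom miR-30e-5p was at -0.01. Without the miRNAs above 10% of any library miR-363 was at 0.07, miR-150 at 0.13, miR-125b at 0.11, miR-17-5p at 0.06 and miR-10a-3p at 0.09. With no low-count filter miR-17-5p was at 0.00 and miR-10a-3p at 0.01, and without the day 0 libraries miR-150 was at 0.00, miR-17-5p at 0.06 and miR-10a-3p at 0.02. The cause of each was not tested.

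Without 1 of the 6 libraries, log2 fold changes that reversed ranged from -0.39 to 0.07 for miR-451, -0.12 to 0.41 for let-7i, -0.50 to 0.02 for let-7g, -0.04 to 1.06 for miR-486, -0.24 to 0.34 for miR-363, -0.38 to 0.79 for miR-144, -0.02 to 0.48 for miR-23a, -0.08 to 0.62 for miR-532-5p and -0.48 to 1.71 for miR-142-3p. They ranged from -0.39 to 0.29 for miR-150, -0.25 to 1.29 for miR-28-3p, -0.64 to 0.00 for miR-191, -0.54 to 0.05 for miR-155-5p, -0.12 to 0.67 for let-7a, -0.01 to 0.49 for miR-99a, -0.25 to 0.10 for miR-125b, -0.14 to 0.70 for miR-125a and -1.10 to 0.55 for miR-100. Further ranges were -1.01 to 0.13 for miR-92a, -0.72 to 0.27 for miR-17-5p, -0.60 to 1.17 for miR-20a, -0.60 to 0.03 for miR-15b, -1.28 to 0.23 for miR-16, -1.32 to 0.21 for miR-29b, -1.64 to 0.12 for miR-29c and -0.76 to 0.92 for miR-30e-5p. The last were -2.62 to 0.05 for miR-127, -0.08 to 0.77 for miR-10a-5p, -0.24 to 0.20 for miR-10a-3p, -1.65 to 1.6 for miR-122, -0.42 to 0.55 for miR-194a, -0.16 to 0.63 for miR-194b-5p and -0.76 to 1.44 for miR-219a. Where an age was left with fewer libraries, the filter admitted 232 or 233 miRNAs.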
